A study of Mus musculus with 12 samples.

Results

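The vacuolar ATPase (V-ATPase) subunits examined were Atp6v0a1, Atp6v0b, Atp6v0c, Atp6v0d1, Atp6v1a, Atp6v1b2, Atp6v1c1, Atp6v1d, Atp6v1e1 and Atp6v1h, 10 genes taken by the symbols that annotate the probes of the array. Of these, 9 genes were read by 13 of the 25697 probes. Atp6v0c was not analysed on the arrays here. The list was selected on Atp6v0a1, whose log2 signals after AMI and after vehicle had been seen to differ in opposite directions in the hippocampus and the cortex, and the question was whether the other subunits did the same. The AMI contrasts of Atp6v0a1 are therefore given as a description without a test, while the other 8 genes were tested.

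Arrays were run on RNA from male 3×TgAD mice, a triple-transgenic model of Alzheimer's disease, so that every group carried the same transgenes. Mice aged 14 months received AMI (amitriptyline-hydrochloride, a tricyclic antidepressant, at 100 µg per g of body weight per os) or plain water as vehicle for 4 months, with 15 mice per treatment, and were 18 months old at the end. Both treatments also included BrdU injections. The hippocampus and the cortex each gave 3 arrays per treatment, 12 arrays in all, and no untreated non-transgenic group was analysed here. The labels do not say that the 3 samples of a group came from separate mice, so p-values measure the spread between these samples.

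The V-ATPase is a rotary proton pump that acidifies lysosomes, endosomes and synaptic vesicles. Its cytosolic V1 sector hydrolyses ATP, and its membrane-embedded V0 sector carries protons. In neurons the pump also provides the proton gradient that loads neurotransmitter into synaptic vesicles.

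Signals are log2 mean bead signals, z-normalized within each array and rescaled by the mean SD of the 6 arrays of a tissue, so that 0 is the mean of an array. The background was not subtracted, which understates the change of dim probes. All 13 probes had a detection p of 0 on all 12 arrays, and no subunit was lost to the detection filter. Fold changes are differences of log2 means between AMI and vehicle, tested with limma over probes that reached a detection p of 0.05 on 3 or more of the 6 arrays in question (13163 hippocampal and 12944 cortical probes), with Benjamini-Hochberg adjustment. With 3 arrays against 3, an exact permutation test cannot give a p under 0.1. Precision is limited throughout by the number of arrays.

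Between 49.0% and 51.7% of probes were detected on each array. Markers of the hippocampus (Prox1, C1ql2, Dsp and Spink8) averaged 1.83 to 2.62 on the hippocampal arrays and -0.25 to 0.02 on the cortical ones. Markers of the cortex (Tbr1, Rorb, Cux2 and Fezf2) averaged 0.95 to 1.25 on the cortical arrays and 0.42 to 0.78 on the hippocampal ones. The oligodendrocyte markers reported here (Mbp, Mog, Mag and Cnp) averaged 3.39 to 3.77 on the hippocampal AMI arrays and 3.80 to 4.29 on the vehicle arrays, and 3 of the 4 were lower after AMI at an unadjusted p under 0.05, a p that 2.35% of all hippocampal probes had in either direction. The 5 choroid plexus markers (Ttr, Kl, Folr1, Aqp1 and Kcne2), of which 2 were detected there on their brightest probe, averaged 0.18 to 0.44 on the hippocampal AMI arrays and 0.33 to 3.01 on the vehicle arrays. The groups overlapped, and Ttr, which encodes transthyretin, differed by -1.69 on the log2 scale (95% interval -3.77 to 0.39, unadjusted p 0.0986, adjusted p = 1.0 with limma). In bulk tissue, fewer cells of a type and less RNA per cell cannot be told apart, and the part of these differences in the subunit values was not tested. In the main fits no probe of either tissue passed an adjusted p of 0.05 with limma (0.0% of probes in each tissue and in the difference between tissues).

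Atp6v0a1 and Atp6v0d1 were the only subunits of the list read by more than 1 probe, and the sequences of those probes are shown because the agreement between them bears on each gene. The probes follow 5′ to 3′ in lower case as the array annotation gives them, whole or as the first 30 of 50 bases, with the base of the transcript at which each starts. The annotation gives no chromosome for ILMN_1247682. It counts the bases of the Atp6v0a1 probes on different versions of the transcript. The same holds for ILMN_2928320 against the other Atp6v0d1 probes.

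Atp6v0a1 ILMN_1256334, from base 2622, chromosome 11: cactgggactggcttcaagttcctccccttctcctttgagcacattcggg
Atp6v0a1 ILMN_1247682, from base 3817, first 30 bases: tggtgaccttgtttgaacccctctgtcctt
Atp6v0d1 ILMN_2608429, from base 291, chromosome 8: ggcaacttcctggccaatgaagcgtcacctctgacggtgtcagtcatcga
Atp6v0d1 ILMN_1258534, from base 532, chromosome 8: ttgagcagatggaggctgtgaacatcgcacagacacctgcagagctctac
Atp6v0d1 ILMN_2928320, from base 1138, chromosome 8: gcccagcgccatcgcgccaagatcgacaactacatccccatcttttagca
Atp6v0d1 ILMN_2685365, from base 1481, first 30 bases, chromosome 8: cctgggacagtgtccataggtcatccccag

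Atp6v0a1 encodes the a1 isoform of subunit a, the membrane subunit that forms the proton path and is the main a isoform of neurons. On the brighter probe, ILMN_1247682, the hippocampal log2 signals were 5.18, 4.94 and 5.03 after AMI and 4.81, 4.80 and 4.83 after vehicle. The lowest AMI array exceeded the highest vehicle array, and the vehicle values were nearly equal. The cortical log2 signals were 4.75, 4.51 and 4.59 after AMI and 4.92, 4.99 and 4.79 after vehicle, so that the AMI arrays lay below the vehicle arrays, with a gap of 0.04 between the nearest ones.

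The log2 fold change of this probe was 0.24 in the hippocampus (standard error 0.10) and -0.28 in the cortex (standard error 0.10). On the scale of all 12 arrays, the hippocampal change exceeded the cortical change by 0.53 (standard error 0.14), a value above those of 99.4% of the 12430 probes tested in both tissues. These values chose the gene and carry no test here. Groups that were apart in this way, higher in the hippocampus and lower in the cortex after AMI, were seen for 10 of the 12430 probes. The reverse arrangement was seen for 18. In either direction, groups were apart for 7.89% of hippocampal and 12.2% of cortical probes. Because the gene was chosen on this pattern, its rank and these counts are descriptions and no support for it.

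The second probe of Atp6v0a1, ILMN_1256334, gave smaller differences of the same sign. Its hippocampal log2 signals were 0.32, 0.87 and 0.66 after AMI and 0.29, 0.59 and 0.46 after vehicle. Its cortical log2 signals were 1.24, 1.30 and 0.74 after AMI and 1.30, 1.16 and 1.43 after vehicle. The groups overlapped in both tissues, and the log2 fold changes were 0.17 (standard error 0.15) and -0.20 (standard error 0.15). The signal of this probe was 2.48 to 6.44 times the median of undetected probes of the same array, a ratio that was 39.1 to 111 for the first probe, and its values over the 12 arrays, centred within each tissue, had a correlation of 0.18 with those of the first probe.

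**Figure D1:**
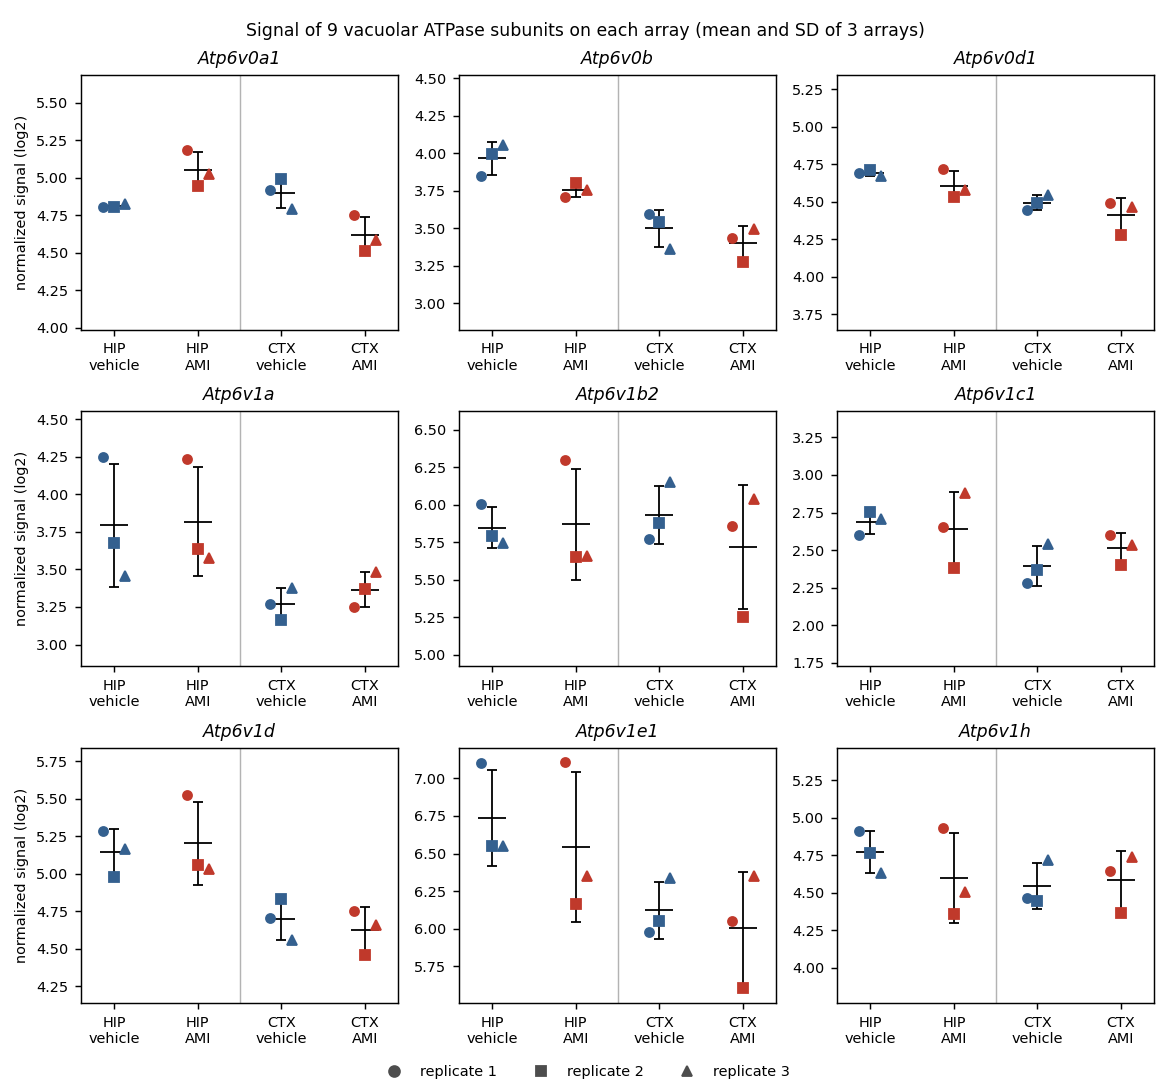
Normalized log2 signal of the 9 measured subunits on each array, by tissue (HIP, hippocampus; CTX, cortex) and treatment, with the mean and SD of 3 arrays as bars and the replicate number as the symbol; each panel spans the same range of log2 units. For Atp6v0a1 the AMI arrays sit above the vehicle arrays in the hippocampus and below them in the cortex, while the other panels show overlapping groups except Atp6v0b in the hippocampus.

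The other V0 subunits of the list that were measured were Atp6v0b and Atp6v0d1. Atp6v0b encodes subunit c″ of the rotating proteolipid ring. Its hippocampal log2 signals were 3.71, 3.80 and 3.76 after AMI and 3.85, 4.00 and 4.06 after vehicle, so that the AMI arrays lay below the vehicle arrays by a narrow gap. Its cortical log2 signals were 3.43, 3.28 and 3.49 after AMI and 3.60, 3.55 and 3.36 after vehicle, and the groups overlapped.

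Atp6v0b had a log2 fold change of -0.21 in the hippocampus (95% interval -0.44 to 0.02, adjusted p = 1.0 with limma, unadjusted 0.0639) and of -0.10 in the cortex (-0.34 to 0.13, adjusted p = 0.916). With the replicate number as a block the hippocampal value had an unadjusted p of 0.0313 and an adjusted p of 0.609 with limma. In that fit 1063 of 13163 probes had an unadjusted p under 0.05. Hippocampal minus cortical, the change of Atp6v0b was -0.09 (95% interval -0.40 to 0.21), opposite in sign to that of Atp6v0a1. Atp6v0b was the only 1 of the 8 other genes whose hippocampal groups did not overlap. Among all probes tested, 7.89% had hippocampal groups that did not overlap, and 12.2% had such groups among the cortical arrays, where none of the 8 did.

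Atp6v0d1 encodes subunit d, which joins the proteolipid ring to the central stalk, and its 4 probes disagreed in the cortex. On the brightest, ILMN_2928320, the hippocampal log2 signals were 4.72, 4.53 and 4.58 after AMI and 4.69, 4.71 and 4.67 after vehicle. The cortical ones were 4.49, 4.28 and 4.46 after AMI and 4.44, 4.49 and 4.54 after vehicle. The groups overlapped in each tissue, because AMI replicate 1 of the hippocampus exceeded every vehicle array and AMI replicates 1 and 3 of the cortex lay within the vehicle range.

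The fold change of this probe was -0.08 on the log2 scale in both tissues, and the difference between tissues was 0.01 (95% interval -0.27 to 0.29, adjusted p = 1.0 with limma). The probe nearest the 3′ end, ILMN_2685365, gave -0.23 in the hippocampus and, in the cortical samples, -0.04. The probes nearer the 5′ end, ILMN_1258534 and ILMN_2608429, gave 0.18 and 0.22 in the cortex and -0.10 and 0.08 in the hippocampus. Their signs in the cortex were thus opposite to those of the other pair, and with all arrays and no replicate block none of the 4 probes had an unadjusted p under 0.05 in either tissue or in the difference between tissues. With the replicate number as a block, the hippocampal value of ILMN_2685365 had an unadjusted p of 0.0401 (adjusted p = 0.615 with limma), and without hippocampal AMI replicate 1 it was -0.42 with an unadjusted p of 0.00566 (adjusted p = 0.664). With array weights the unadjusted p of this probe was 0.0149 in the hippocampus, those of ILMN_1258534 and ILMN_2608429 were 0.00776 and 0.00358 in the cortex, and that of ILMN_1258534 was 0.00364 for the difference, with adjusted p from 0.0705 to 0.462 in limma. An unadjusted p under 0.05 was held with array weights by 1305 of 13163 hippocampal probes, 2954 of 12944 cortical probes and 2491 of 12430 for the difference. Among hippocampal probes, 1063 held it with the block and 960 without AMI replicate 1.

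Leaving out vehicle replicate 3 of the cortex, the changes of ILMN_1258534 and ILMN_2608429 in that tissue were 0.35 (unadjusted p 0.00930, adjusted p = 0.184 with limma) and 0.36 (unadjusted p 0.0190, adjusted p = 0.227). The difference between tissues of ILMN_1258534 was then -0.47 (unadjusted p 0.00748, adjusted p = 0.576 with limma). Without this array, 1960 of 12944 cortical probes and 937 of 12430 probes for the difference had an unadjusted p under 0.05.

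The V1 sector was represented by 6 genes. Atp6v1a encodes the catalytic subunit A, which binds and hydrolyses ATP. Its hippocampal log2 signals were 4.23, 3.64 and 3.58 after AMI and 4.25, 3.67 and 3.46 after vehicle. Replicate 1 was far above replicates 2 and 3 in both treatments, and the treatments differed by 0.02 (95% interval -0.51 to 0.56). The cortical log2 signals were 3.25, 3.37 and 3.48 after AMI and 3.27, 3.16 and 3.38 after vehicle, a difference of 0.10 (95% interval -0.13 to 0.33) with overlapping groups.

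Atp6v1b2 encodes the brain isoform of subunit B, the partner of subunit A in the ATP-binding ring. Its hippocampal log2 signals were 6.30, 5.65 and 5.66 after AMI and 6.0, 5.79 and 5.75 after vehicle. Its cortical log2 signals were 5.86, 5.25 and 6.04 after AMI and 5.77, 5.88 and 6.15 after vehicle. The hippocampal AMI mean was raised by replicate 1 alone, and the cortical AMI mean was lowered by replicate 2 alone. The changes were 0.02 in the hippocampus (95% interval -0.38 to 0.43) and -0.22 in the cortex (-0.67 to 0.23, adjusted p = 0.902 with limma). The difference between tissues, 0.25 on the log2 scale, was the highest of the 8 genes, but its interval of -0.39 to 0.89 included 0. Without AMI replicate 1 the hippocampal change was -0.19, and without AMI replicate 2 the cortical change was 0.02.

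Atp6v1d encodes subunit D of the central stalk, which turns with the proteolipid ring. Its hippocampal log2 signals were 5.52, 5.05 and 5.03 after AMI and 5.29, 4.98 and 5.16 after vehicle. Its cortical log2 signals were 4.75, 4.46 and 4.66 after AMI and 4.71, 4.83 and 4.56 after vehicle. The groups overlapped in both tissues, with changes of 0.06 (95% interval -0.29 to 0.41) and -0.07 (-0.33 to 0.18). Its tissues differed by 0.13 (95% interval -0.29 to 0.56), of the sign seen for Atp6v0a1 but not separable from 0.

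Atp6v1c1, Atp6v1e1 and Atp6v1h encode subunits of the peripheral stalks and of their link to V1, namely C, E and H, of which C and H are involved in the reversible assembly of the pump. For Atp6v1c1 the hippocampal log2 signals were 2.66, 2.38 and 2.88 after AMI and 2.60, 2.75 and 2.71 after vehicle, and the vehicle values lay within the AMI range. Its cortical log2 signals were 2.60, 2.40 and 2.53 after AMI and 2.28, 2.37 and 2.54 after vehicle. The changes were -0.05 in the hippocampus (95% interval -0.36 to 0.26) and 0.12 in the cortex (-0.12 to 0.36, adjusted p = 0.898 with limma). Between tissues the changes differed by -0.17 (95% interval -0.55 to 0.20), opposite in sign to that of Atp6v0a1.

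Atp6v1e1 had hippocampal log2 signals of 7.11, 6.16 and 6.35 after AMI and 7.11, 6.55 and 6.55 after vehicle. Replicate 1 was the highest of each group and was equal in the treatments to 2 decimals, while AMI replicates 2 and 3 lay below vehicle replicates 2 and 3. The cortical log2 signals were 6.05, 5.60 and 6.35 after AMI and 5.98, 6.05 and 6.34 after vehicle. The changes were -0.19 (95% interval -0.76 to 0.38) and -0.12 (-0.54 to 0.30), the widest hippocampal interval of the list. Without hippocampal AMI replicate 1 the change was -0.49, with an unadjusted p of 0.0270 and an adjusted p of 0.664 with limma. In that fit 960 of 13163 probes had an unadjusted p under 0.05.

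Atp6v1h had hippocampal log2 signals of 4.93, 4.36 and 4.51 after AMI and 4.91, 4.76 and 4.63 after vehicle. Its cortical log2 signals were 4.65, 4.36 and 4.74 after AMI and 4.46, 4.45 and 4.72 after vehicle. The groups overlapped in each tissue, and the changes were -0.17 (95% interval -0.53 to 0.19) and 0.04 (-0.25 to 0.33). Hippocampal and cortical changes differed by -0.20 (95% interval -0.66 to 0.25, adjusted p = 1.0 with limma), also opposite in sign to that of Atp6v0a1. Without hippocampal AMI replicate 1 the change was -0.35, with an unadjusted p of 0.0220 and an adjusted p of 0.664 with limma, a fit in which 960 of 13163 probes had an unadjusted p under 0.05.

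**Figure D2:**
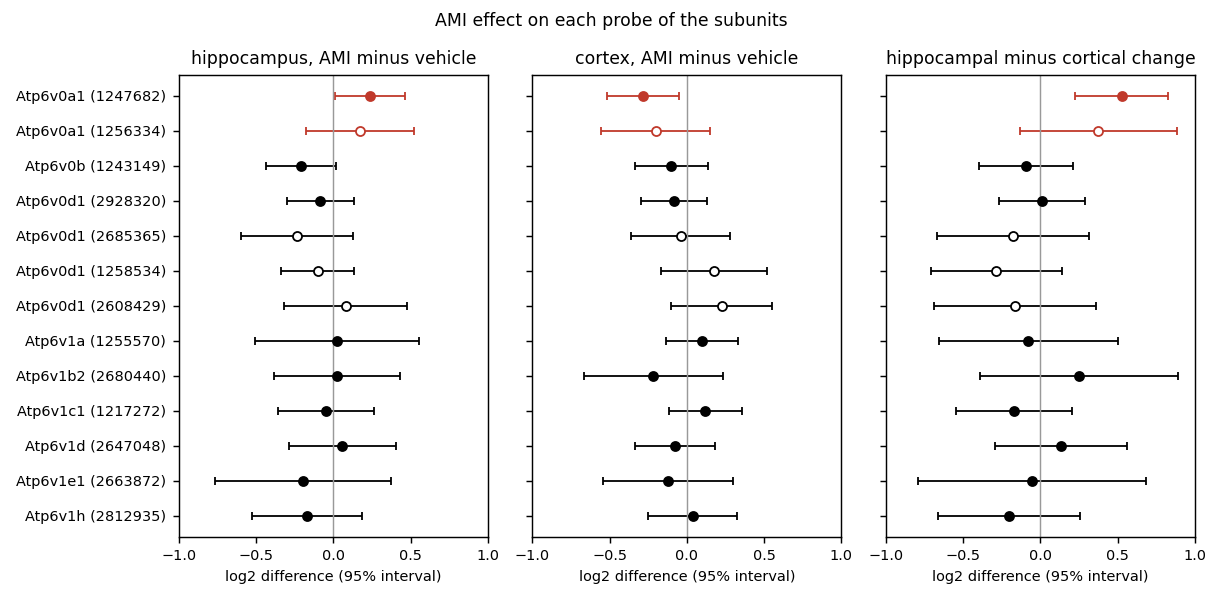
Log2 difference between AMI and vehicle for each of the 13 probes (number in brackets) in the hippocampus, in the cortex, and as the hippocampal minus the cortical change, with 95% intervals from limma; filled points are the brightest probe of a gene, open points its other probes, and Atp6v0a1 is in red. The intervals of the 8 other genes include 0 in all 3 panels.

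Counted over the list, 0 of the 8 other genes had an unadjusted p under 0.05 in the hippocampus, where 2.35% of all probes did, 0 of 8 in cortical tissue, where 6.28% did, and 0 of 8 in the difference between tissues, where 3.03% did. At these background shares a count of 0 of 8 is no result about the subunits. None passed an adjusted p of 0.05, and the smallest adjusted p of limma over the 8 genes was 1.0 in the hippocampus, 0.898 in the cortex and 1.0 for the difference. In the hippocampus 3 of the 8 were higher after AMI and 5 lower (5 and 3 with median centring), with a median log2 fold change of -0.07 against 0.01 over all probes tested. In the cortex 3 were higher and 5 lower (6 and 2 with quantile normalization, 7 and 1 with median centring), with a median of -0.08 against 0.02 over all probes. The share of all probes that was higher after AMI was 55.03% and 57.1% in the tissues, and 72.1% and 68.0% with median centring. With quantile normalization it was 49.8% in the cortex. The median size of the change regardless of sign was 0.07 in the hippocampus and 0.10 in the cortex, against 0.08 and 0.09 over all probes.

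Of the 8 other genes, 2 had a positive change in the hippocampus and a negative one in the cortex, the signs for which Atp6v0a1 was chosen, namely Atp6v1b2 and Atp6v1d, and 22.2% of the probes tested in both tissues had these signs. With quantile normalization, neqc or median centring Atp6v1d did not have them, and with array weights Atp6v1b2 did not. The opposite pair of signs was shown by 2 genes (Atp6v1c1 and Atp6v1h), against 24.1% of probes. Both counts of 2 of 8 are near these shares and are no result about the subunits. The other 4 changed in sign together, Atp6v1a upwards and Atp6v0b, Atp6v0d1 and Atp6v1e1 downwards. The difference between tissues was above 0 for 3 of the 8 other genes and below 0 for 5, with a median of -0.07 against -0.02 over all probes. The 95% interval of this difference included 0 for each of the 8.

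**Figure D3:**
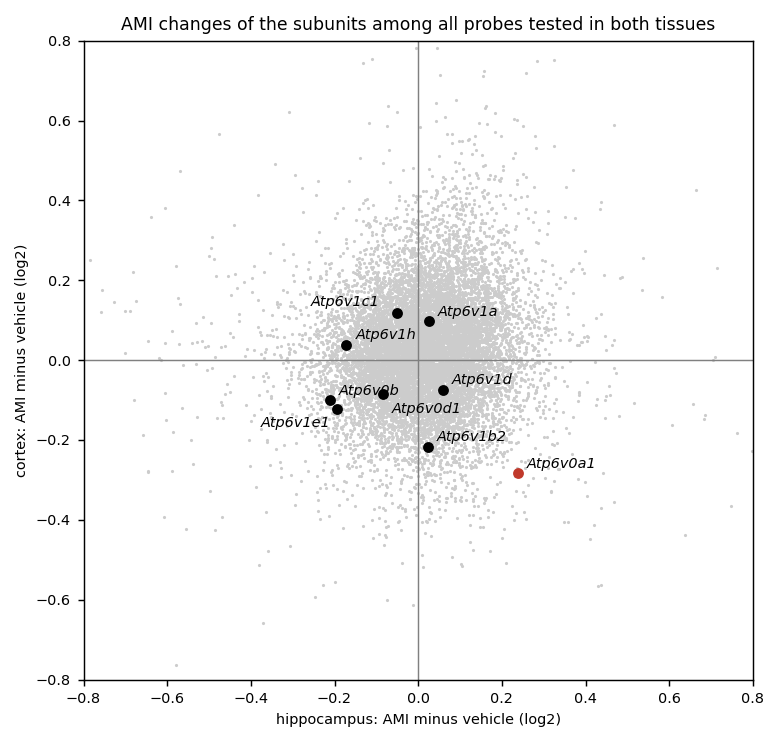
Log2 difference between AMI and vehicle in the cortex (y axis) against that in the hippocampus (x axis) for the 12430 probes tested in both tissues (grey, those within 0.8 of 0 shown) and for the brightest probe of each measured subunit. Atp6v0a1, in red, lies at 0.24 and -0.28, and the other 8 genes lie within 0.22 of 0 on both axes.

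The subunits also differed between arrays of 1 treatment. Averaged over the 8 other genes, the deviation from the tissue mean was 0.23 on hippocampal AMI replicate 1 and 0.17 on vehicle replicate 1, against -0.22, -0.12, -0.01 and -0.04 on AMI replicates 2 and 3 and vehicle replicates 2 and 3. The SD of all log2 signals of an array was 1.51 and 1.53 on the replicate 1 arrays and 1.71 to 1.85 on the other hippocampal arrays. In the cortex AMI replicate 2 had the lowest mean deviation of the 8 genes (-0.22) and the highest SD of its signals (1.68), and the others deviated by -0.03 to 0.12 with SDs from 1.42 to 1.53. The values of the array SD thus moved with those of the subunits, and their part in the subunit values was not tested.

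After quantile normalization, which gives the arrays of a tissue the same distribution of signals, the mean deviation of the 8 genes was between -0.04 and 0.06 on the hippocampal arrays and between -0.07 and 0.06 on the cortical ones. Atp6v0a1 followed the treatments on this scale too in the hippocampus, where its deviations were 0.02, 0.22 and 0.22 after AMI and -0.33, -0.06 and -0.07 after vehicle. In the cortex they were -0.02, -0.00026 and -0.25 after AMI and 0.11, 0.16 and -0.00026 after vehicle, so that AMI replicate 2 and vehicle replicate 3 were equal and the groups were no longer apart. The change of Atp6v0a1 was 0.31 in the hippocampus and -0.18 in the cortex on that scale.

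**Figure D4:**
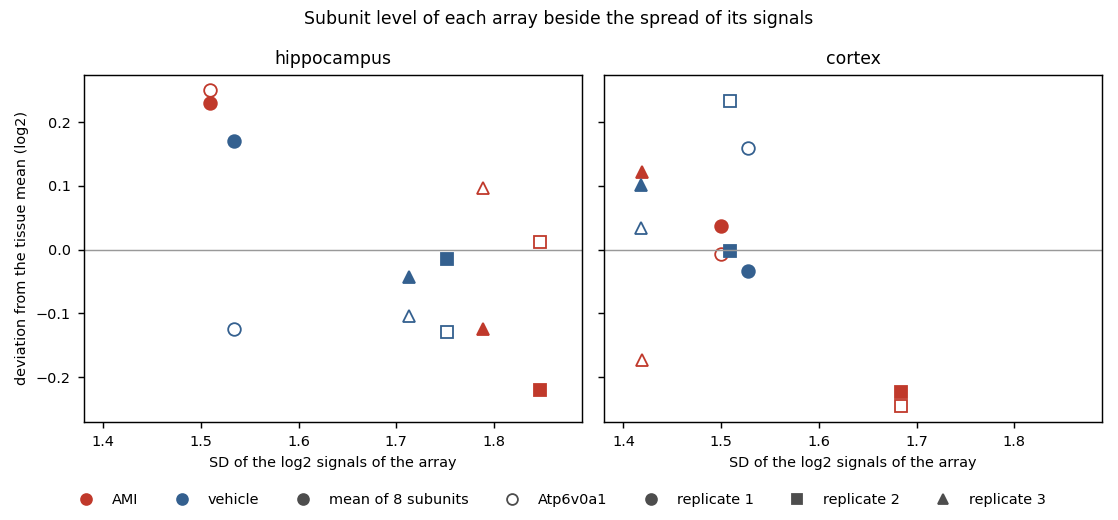
Deviation from the tissue mean, in log2 units, of the average of the 8 other subunits (filled) and of Atp6v0a1 (open) against the SD of all log2 signals of the same array, with the treatment as colour and the replicate number as symbol. The average of the 8 is highest where the SD is low, at 0.23 and 0.17 on the hippocampal replicate 1 arrays, and lowest on AMI replicate 2 of both tissues.

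With the group means removed, the 36 pairs of the 9 genes had a median Pearson correlation of 0.42 over the 12 arrays, from -0.53 (Atp6v0b with Atp6v1a) to 0.96 (Atp6v1e1 with Atp6v1h), and 29 of the 36 were above 0. These are descriptions, since the arrays share the differences in SD. Atp6v1b2, Atp6v1e1 and Atp6v1h formed the closest trio, with correlations of 0.94 to 0.96. Atp6v0a1 was closest to Atp6v1d (0.83) and had 0.08 to 0.58 with the others.

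With the arrays centred within each tissue but not by treatment, the probes of other genes most like the Atp6v0a1 probe ILMN_1247682 over the 12 arrays were those of LOC100045005 (Pearson's r 0.93), Glt8d1 (0.89), Kifc2 (0.86), Darc (0.85) and Bcan (0.85). Each was higher after AMI in the hippocampus, by 0.09 to 0.23, and lower in the cortex, with changes of -0.39 to -0.18 on the log2 scale, which follows in part from choosing them by likeness. Among the other subunits Atp6v1d came highest (0.62), followed by Atp6v1b2 (0.43), and Atp6v1c1 was lowest (-0.19).

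The other genes of the pump were read from a list of 15 further subunits, isoforms and accessory proteins, of which 14 had a probe and 10 passed the detection filter in both tissues. On the brightest probe of each gene, none of the 10 had an unadjusted p under 0.05 in the hippocampus (2.35% of all probes), 2 did in the cortex (both higher, 6.28% of all probes) and 2 in the difference between tissues (1 of each sign, 3.03% of all probes), and none passed an adjusted p of 0.05 with limma. Among their dimmer probes, 2 of Atp6ap2 also had such a p in the cortex and 1 of these in the difference between tissues. Their median log2 fold change was -0.06 in the hippocampus and -0.04 in the cortex, against 0.01 and 0.02 over all probes. The genes named below were taken from the list by the unadjusted p.

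Atp6v0a2 and Tcirg1 encode the a2 and a3 isoforms, which can take the place of a1 in the V0 sector. For Atp6v0a2 the cortical log2 signals were 1.71, 1.47 and 1.81 after AMI and 1.15, 1.37 and 1.48 after vehicle, with an overlap at AMI replicate 2. In the hippocampus they were 1.49, 1.53 and 1.53 after AMI and 1.61, 1.51 and 1.60 after vehicle. The changes were 0.33 in the cortex (standard error 0.12, unadjusted p 0.0279 and adjusted p = 0.756 with limma) and -0.06 in the hippocampus. The difference between tissues was -0.40 (standard error 0.16, adjusted p = 1.0 with limma), of the opposite sign to that of a1.

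The brightest probe of Tcirg1, ILMN_2954881, had cortical log2 signals of -0.01, 0.22 and 0.21 after AMI, below the 0.25, 0.28 and 0.50 after vehicle. Its hippocampal log2 signals were 0.13, 0.42 and 0.38 after AMI and -0.06, 0.22 and 0.26 after vehicle, and the groups overlapped. The changes were 0.17 and -0.20 in the hippocampus and the cortex, and their difference was 0.38 (standard error 0.17, unadjusted p 0.0466 and adjusted p = 1.0 with limma). A second probe near the 3′ end, ILMN_2746456, gave 0.10 and -0.09. The cortical change was 0.17 on ILMN_2643879, nearer the 5′ end, opposite in sign to the probes near the 3′ end. ILMN_2643879 was detected on 3 cortical arrays, the fewest that the detection filter allows, and on 0 hippocampal arrays. Its cortical log2 signals were -0.75, -0.36 and -0.64 after AMI and -0.77, -0.83 and -0.65 after vehicle, and the groups overlapped. So near the detection limit, it cannot decide whether the probes of Tcirg1 disagree. Neither isoform passed the adjusted threshold.

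**Figure D5:**
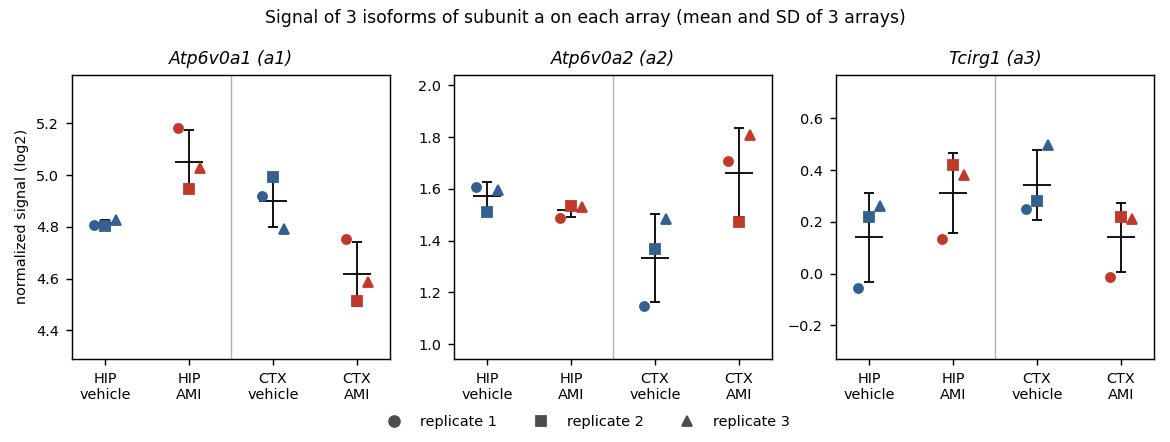
Normalized log2 signal of the brightest probe of each of 3 isoforms of subunit a on each array, by tissue (HIP, hippocampus; CTX, cortex) and treatment, with the mean and SD of 3 arrays and the replicate number as the symbol; each panel has its own level but the same span. After AMI the cortical mean is lower for Atp6v0a1 and Tcirg1, by 0.28 and 0.20, and higher for Atp6v0a2, by 0.33.

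Atp6v0e, which encodes the small V0 subunit e1, was higher after AMI in the cortex, with log2 signals of 2.39, 2.50 and 2.28 against 2.21, 2.12 and 2.18 after vehicle and no overlap. The change was 0.22 (standard error 0.09, unadjusted p 0.0435 and adjusted p = 0.781 with limma), against -0.08 in the hippocampus. On the brightest probes, 4 of the 10 genes tested had cortical groups that did not overlap. AMI was above for 2 (Atp6v0e and Atp6v1g1) and below for 2 (Tcirg1 and Atp6v1b1). Among all cortical probes the share was 12.2%.

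Among the proteins that act on assembly or stability of the pump, 6 of 11 genes were tested, and 2 were higher in the cortex at an unadjusted p under 0.05 (6.28% of all probes had such a p in either direction), namely Oxr1 (0.41, standard error 0.11, adjusted p = 0.756 with limma), which encodes a TLDc protein of the kind that binds V1, and Ccdc115 (0.23, standard error 0.10, adjusted p = 0.781), a factor of V0 assembly. For both, the lowest cortical AMI array exceeded the highest vehicle array. Cortical groups did not overlap, in either direction, for 12.2% of all probes. Of the ion transporters of the same organelles, 8 were tested in the cortex and Clcn3, a chloride-proton exchanger, was higher at an unadjusted p of 0.0304 (0.30, adjusted p = 0.756 with limma). Of the 4 vesicular neurotransmitter transporters tested, which use the proton gradient of the pump, Slc17a8 was higher in the cortex (0.31, adjusted p = 0.756 with limma), with overlapping groups. Of 9 genes of the Ragulator and mTORC1 machinery, which docks on the lysosomal V-ATPase, Lamtor1 was lower in the hippocampus at an unadjusted p of 0.0369 (-0.24, adjusted p = 1.0 with limma), where 2.35% of all probes had a p under 0.05. None of these genes passed the adjusted threshold.

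Where a V-ATPase gene was read by probes at both ends of its transcript, the cortical changes were higher on the probes nearer the 5′ end, a comparison chosen after the values were seen. For Atp6ap2, an accessory subunit, the probes from bases 136, 137 and 384 gave 0.60, 0.75 and 0.59 in the cortex (unadjusted p 0.114, 0.0269 and 0.0402, adjusted p of 0.756 or more with limma), and the probe from base 1826, the brightest, gave 0.00. For the probe from base 137 the difference between tissues was -0.91 (unadjusted p 0.0409, adjusted p = 1.0 with limma). For Atp6v1g2, the neuronal isoform of subunit G, the probe from base 135 gave 0.18 and that from base 1396 gave -0.10. For Tcirg1 the probe from base 453 gave 0.17, and those from bases 2409 and 2421 gave -0.20 and -0.09. The Tcirg1 probe from base 453 was detected on only 3 cortical arrays, the fewest that the filter allows. Its value is therefore too near the detection limit to count for this comparison. Cortical vehicle replicate 2 was the lowest array on each of the 3 Atp6ap2 probes nearer the 5′ end, at 1.02, 0.65 and 1.32 against 1.65 or more on the other cortical arrays, and it was also the lowest for both 5′ probes of Atp6v0d1. RNA quality values were not analysed here, and their part in these differences was not tested. Both probes of Atp6v0a1 start far from the 5′ end, at bases 2622 and 3817, and gave -0.20 and -0.28 in the cortex. The gene thus had no probe near the 5′ end to compare, and the part of probe position in its values was not tested.

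Promoters were compared for the members whose upstream window, from 250 bases before to 50 after the annotated start, was in the RefSeq table of the GRCm38.p6 build. Of the 10 genes, 7 had such a window, Atp6v0c among them. The letters CACGTG, an E-box of the kind bound by TFEB and related factors that act on lysosomal genes, were searched; they read the same on both strands. They were found in Atp6v0b, Atp6v0d1 and Atp6v1a, 3 of the 7, and in 8.09% of the windows of 27025 genes. The longer TCACGTGA, which contains the E-box, was found in Atp6v0d1 and Atp6v1a and in 1.13% of the genes. The windows of Atp6v0a1, Atp6v0c, Atp6v1d and Atp6v1e1 held no CACGTG. The stretches around the E-boxes are shown 5′ to 3′ on the strand of the gene, with the E-box in capitals, to show its position and surroundings in the 3 genes that hold it.

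Atp6v0b, chr4:117887330-117887377, minus strand: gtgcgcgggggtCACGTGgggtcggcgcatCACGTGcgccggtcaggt
Atp6v0d1, chr8:105566050-105566079, minus strand: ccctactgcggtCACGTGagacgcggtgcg
Atp6v1a, chr16:44139373-44139402, minus strand: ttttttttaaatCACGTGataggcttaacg

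The E-boxes of Atp6v0b begin 36 and 18 bases before the annotated start, that of Atp6v0d1 3 bases before it and that of Atp6v1a 131 bases before it. On their brightest probes these 3 genes changed by -0.21, -0.08 and 0.02 in the hippocampus and by -0.10, -0.08 and 0.10 in the cortex, on the log2 scale and with overlapping groups except for Atp6v0b in the hippocampus. A match of letters is a description of the sequence and not of a bound site.

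The levels of the subunits in the tissues are given without a test, because the tables of the tissues were made separately and normalized separately. In vehicle-treated mice the log2 means in the hippocampus and the cortex were 4.81 and 4.90 for Atp6v0a1, 3.97 and 3.50 for Atp6v0b, 4.69 and 4.49 for Atp6v0d1, and 3.79 and 3.27 for Atp6v1a. They were 5.85 and 5.93 for Atp6v1b2, 2.69 and 2.40 for Atp6v1c1, 5.14 and 4.70 for Atp6v1d, 6.74 and 6.12 for Atp6v1e1, and 4.77 and 4.54 for Atp6v1h. The hippocampal mean was the higher for 7 of the 9 genes, all but Atp6v0a1 and Atp6v1b2, and tissue and table cannot be told apart.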

How the data were processed

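The authors deposited, per tissue, the mean bead signal of every probe of an Illumina mouse BeadChip as a linear intensity, neither normalized nor background-subtracted, with the detection p-value of each probe on each array. The submitters' processing notes name BeadStudio 3.4 and GenomeStudio 1.1.1. All 12 arrays were grouped by their titles and labels. Each array's log2 signals were brought to mean 0 and SD 1 (the z normalization of the study's methods) and rescaled with the average SD of the 6 arrays of a tissue, or of all 12 arrays for the difference between tissues. AMI and vehicle were compared within each tissue, and the difference between tissues as an interaction over 12430 probes, with limma 3.58.1 (lmFit and eBayes, two-sided, Benjamini-Hochberg) in R 4.3.3 with statmod 1.5.0, checked on simulated data with known changes. The interaction treated the 12 arrays as independent, and the labels do not say whether hippocampus and cortex came from the same mice. Within a treatment, deviations from group means of same-numbered hippocampal and cortical arrays had correlations of -0.35 to 0.09. Python 3.11.15 with numpy 2.4.6, pandas 2.3.3 and matplotlib 3.10.9 made tables and figures.

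The members and lists were chosen with earlier results of these data known. The named genes are all members, with the probe of highest mean signal standing for a gene, genes of 5 pathway lists with an unadjusted p under 0.05 (at most 4 per list), and the 5 probes most like Atp6v0a1. Array annotation does not name its genome build, so no probe positions are printed. Numbers in the titles were checked for pairing by correlating deviations from group means. Same-numbered hippocampal arrays of the treatments gave 0.61, 0.30 and 0.29. Hippocampal AMI replicate 3 with vehicle replicate 2 gave 0.28, and AMI replicate 2 with vehicle replicate 3 gave 0.17. The other differently numbered hippocampal pairs gave -0.47 to -0.33. The values thus set replicate 1 apart but do not pair replicates 2 and 3 by number. Same-numbered cortical arrays gave -0.06, 0.33 and 0.33. Differently numbered cortical pairs gave -0.42 (AMI replicate 2 with vehicle replicate 3) to 0.27 (AMI replicate 2 with vehicle replicate 1). The cortical values thus do not pair all replicates by number. The main fits were unpaired in both tissues, and the replicate number entered only as a block in an alternative setting. Alternative settings were neqc (offset 16), centring on the median, quantile normalization, z normalization restricted to tested probes, no detection filter, a detection p of 0.01 on all 6 arrays, trend with robust variances, array weights, a replicate block, both tissues in 1 fit, the methods' t-test, the mean of all detected probes of a gene, and leaving out each array. A marker gene of the cortex list and another of the oligodendrocyte list are not reported here, and the averages of those lists leave them out.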

Additional observations from a re-analysis of the deposited data

Results flagged for a closer look

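Atp6v0a1 (ILMN_1247682) is listed because all 3 AMI arrays lay above the vehicle arrays in the hippocampus and all 3 lay below them in the cortex, with a hippocampal minus cortical change of 0.53 on the log2 scale. The difference was not tested, since the gene was selected on it. Its size was between 0.44 and 0.60 over the 22 settings that gave it, and the cortical groups met in 1 value after quantile normalization. No other probe of the measured subunits had groups apart in opposite directions, and groups of 3 arrays are too small for a check of single outlying arrays.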

How the results depend on the processing

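For Atp6v0a1 (ILMN_1247682) every setting kept the signs, with changes of 0.18 to 0.39 in the hippocampus over 18 settings, -0.35 to -0.13 in the cortex over 18, and 0.44 to 0.60 for the difference over 22. None of the 8 other genes passed an adjusted p of 0.05 with limma under any setting or with the methods' t-test. Among all probes, 2 cortical ones passed it with neqc, 2 with trend and robust variances, and 2 with array weights. Without cortical AMI replicate 3, 1 cortical probe passed, and without hippocampal AMI replicate 2, 1 hippocampal probe did. The number of these 8 genes with an unadjusted p under 0.05, 0 in each comparison, became 1 in the hippocampus without a detection filter, with the methods' t-test and with the replicate block (Atp6v0b each time), and 2 with array weights (Atp6v0b and Atp6v1h). Among all probes, 615 of 25697 had such a p without the filter. Of 13163 probes, 483 had it with the t-test, 1063 with the block and 1305 with array weights. With array weights the number was 1 in the cortex (Atp6v1c1) and 1 for the difference (Atp6v1h). There 2954 of 12944 cortical probes and 2491 of 12430 probes for the difference had such a p. Leaving out 1 array, the number was between 0 and 2 in the hippocampus, 2 without AMI replicate 1 (Atp6v1e1 and Atp6v1h) and 1 without vehicle replicate 1 (Atp6v0b). Such a p was held by 960 and 383 of 13163 probes in these fits. With 8 correlated genes, counts of 1 or 2 are no result about the subunits. All 8 hippocampal changes were below 0 without AMI replicate 1 or without vehicle replicate 2, against 5 of 8 with all arrays, and 6 of 8 cortical changes were above 0 without AMI replicate 2, against 3 of 8. Over all probes, 63.1% and 58.9% of hippocampal changes and 51.7% of cortical changes were above 0 in these fits. The 8 genes were correlated, so their signs are not independent. In the hippocampal fit with the replicate block, Atp6v0b kept its value of -0.21 and had an adjusted p of 0.609 with limma. Its adjusted p over all settings was 0.472 or more in the hippocampus and 0.346 or more in the cortex.

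Signs turned for each of the 8 genes in at least 1 of the settings below except Atp6v1h, whose sign turned only when an array was left out. With quantile normalization the cortical values of Atp6v0d1, Atp6v1d and Atp6v1e1 were 0.018, 0.014 and 0.092, and with neqc 0.019, 0.014 and 0.092. With median centring they were 0.059, 0.069 and 0.061, that of Atp6v0b was 0.0041, and the hippocampal values of Atp6v0d1 and Atp6v1c1 were 0.063 and 0.039. With array weights the hippocampal values of Atp6v1a, Atp6v1b2 and Atp6v1c1 were -0.045, -0.094 and 0.0015, and the cortical value of Atp6v1e1 was 0.0066. The difference between tissues turned for Atp6v0d1 to -0.055 with quantile normalization, -0.056 with neqc, -0.031 with z normalization over tested probes and -0.11 with array weights, and for Atp6v1b2 to -0.062 with array weights. The mean of all 4 Atp6v0d1 probes gave 0.070 in the cortex and -0.15 for the difference. The causes were not tested.

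Leaving out 1 array gave hippocampal changes of -0.19 to 0.26 for Atp6v1a, -0.19 to 0.13 for Atp6v1b2, -0.17 to 0.079 for Atp6v1c1 and -0.10 to 0.14 for Atp6v1d. The cortical changes were -0.38 to 0.016 for Atp6v1b2, -0.15 to 0.0089 for Atp6v1d, -0.30 to 0.076 for Atp6v1e1 and -0.039 to 0.15 for Atp6v1h. The differences between tissues were -0.061 to 0.051 for Atp6v0d1, -0.28 to 0.14 for Atp6v1a, -0.017 to 0.21 for Atp6v1d and -0.32 to 0.13 for Atp6v1e1.

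What the arrays can show is limited by 3 samples a group. For the 8 genes the 95% intervals extended 0.22 to 0.57 on each side of the hippocampal change and 0.21 to 0.45 of the cortical one. Whether the 3 samples of a group are separate mice, what a replicate number marks and the quality of each RNA are not given in the sources used here.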
